A study of Homo sapiens with 4 samples.

Results

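The chromatin at the ends of the human autosomes was read here as 100-kb windows in the first and last 5 Mb of each of the 22 autosomes (build hg19), counted inward from the end of the assembled chromosome. On chromosomes 13, 14, 15, 21 and 22 only the long-arm end was used, which leaves 39 ends, 17 of short arms (p) and 22 of long arms (q). A window was kept when at least 50% of its bases were assayed in both replicates, and 1893 of 1950 windows were kept, out of 26518 kept windows on all autosomes. The measured quantity was macroH2A1, located by ChIP-seq (sequencing of DNA recovered by chromatin immunoprecipitation) in IMR90, a line of human lung fibroblasts, untreated as far as the labels say, with an antibody against macroH2A1. The series had 4 samples: 2 macroH2A1 ChIPs, described in the labels as biological replicates, and 2 inputs of sheared chromatin without immunoprecipitation. All 4 came from the same cell line, so there is no second condition and the comparisons are between regions within the same libraries. The value of a window is the mean log2 ratio of ChIP over input, weighted by length, so 0 is the level at which ChIP equals input as scaled by the authors and a value below 0 means less macroH2A1 signal than input. With 2 replicates of 1 group no test between regions was made, and each value is given in replicate 1 and replicate 2 or with the SD over the 2.

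MacroH2A1 is an H2A histone variant with a large macro domain attached to its tail. It is known for broad domains over the inactive X chromosome and over silent or weakly transcribed autosomal chromatin, and for being low over most active genes. The last stretches of a chromosome before the telomere hold duplicated sequence blocks shared among ends, then unique sequence that at many ends is rich in genes and in CG dinucleotides. The telomere itself is an array of the repeat TTAGGG, which shelterin proteins bind. Genes near a telomere can be silenced by their position, as studied for SORBS2, ISG15 and the 4q gene DUX4.

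Where the assayed sequence stops was read from the GRCh37 reference by counting the telomere repeat (TTAGGG on long arms, its complement CCCTAA on short arms, plus strand). Over the last 5 kb of sequence, 17 of the 39 ends had 10 or more copies in the outward orientation and 3 had 0, so at most ends the windows stop short of the telomere array and describe subtelomeric chromatin.

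The start sites of 3 genes, from the GRCh37 reference, are shown because they lie far apart in the range of values near chromosome ends. CG dinucleotides are in capitals, the bases are read 5′ to 3′ on the gene's strand and span 250 bases before to 50 bases from the annotated start. ZFP42 (chr4:188916675-188916974, plus strand) and JPH3 (chr16:87635191-87635490, plus strand) start in windows above 0. FAT1 (chr4:187647827-187648126, minus strand), which borders the domain of ZFP42, is among the low genes.
ZFP42: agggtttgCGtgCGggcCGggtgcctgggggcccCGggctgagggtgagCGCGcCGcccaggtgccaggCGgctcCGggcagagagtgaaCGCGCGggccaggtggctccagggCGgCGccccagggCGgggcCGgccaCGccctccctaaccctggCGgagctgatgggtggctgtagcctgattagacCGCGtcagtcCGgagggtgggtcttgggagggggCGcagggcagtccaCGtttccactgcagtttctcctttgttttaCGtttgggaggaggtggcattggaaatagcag
JPH3: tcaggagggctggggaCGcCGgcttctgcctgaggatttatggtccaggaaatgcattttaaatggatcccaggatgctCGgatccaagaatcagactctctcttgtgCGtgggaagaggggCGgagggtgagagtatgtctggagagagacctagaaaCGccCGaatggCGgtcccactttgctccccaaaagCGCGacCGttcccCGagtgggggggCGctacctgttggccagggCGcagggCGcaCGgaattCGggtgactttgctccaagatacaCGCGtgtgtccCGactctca
FAT1: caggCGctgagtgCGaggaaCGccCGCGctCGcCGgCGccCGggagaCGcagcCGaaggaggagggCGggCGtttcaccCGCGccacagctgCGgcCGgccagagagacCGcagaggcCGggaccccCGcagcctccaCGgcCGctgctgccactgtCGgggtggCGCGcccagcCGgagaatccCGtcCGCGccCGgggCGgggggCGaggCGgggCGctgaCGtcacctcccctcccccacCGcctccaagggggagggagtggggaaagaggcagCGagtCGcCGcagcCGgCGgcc
The 300 bases held 24 CG at ZFP42, 20 at JPH3 and 41 at FAT1. Of 19229 autosomal protein-coding starts, 37.9% had at least as many as ZFP42, 47.2% as JPH3 and 7.46% as FAT1. The low gene of the 3 thus had the most CG. Across measured genes starting within 5 Mb of an end, the median count was 12 in the 411 genes above 0 in both replicates and 28 in the 1757 below 0. For other autosomal genes the medians were 8 and 20. A deposited value is the mean of a segment that is usually many kilobases long, so these 300 bases have no value of their own.

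The kept windows hold 184.2 Mb of assayed sequence. They were touched by 5311 segments of replicate 1 and 2600 of replicate 2, the longest of 2.74 and 2.32 Mb. Neighbouring windows therefore often share a segment and are not independent. The correlation of the replicates over the 1893 windows was 0.97 (Pearson) and 0.96 (Spearman), as a description. The files give no read counts, so depth and counting error are unknown.

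The outermost values are not separate measurements of each end. At all 24 borders between chromosomes in the files, the final segment of a chromosome and the first segment of the one listed after it carry the same ratio and the same −log10 p, in both replicates. Of the 39 ends, 38 have such a segment in each replicate, and 10p, listed first, has none. The final segment of 11q and the first of 12p, for example, both stand at 0.61 in replicate 1 and 0.53 in replicate 2. These segments hold 0.94% of the assayed bases of the windows and touch 37 windows. Without them 1868 windows remained, the mean was -0.60, and the mean of both replicates moved by at most 0.06 at any end.

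MacroH2A1 was lower at the chromosome ends than in the rest of the autosomes. The mean log2 ratio of the windows was -0.68 in replicate 1 and -0.50 in replicate 2 (-0.59 ± 0.13, SD, n = 2), against -0.30 and -0.33 in the 24625 interior windows over 5 Mb from both ends. The difference was -0.38 and -0.17 (-0.28 ± 0.15, SD, n = 2), below 0 in both replicates, which differed from each other by more than the smaller of these values. The 1788 interior windows within 5 Mb of a centromere gap, another kind of landmark, averaged -0.40 and -0.45, and the ends lay below them by -0.28 and -0.05. The second of these differences is small, so the ends were set apart from pericentromeric windows mainly in replicate 1. That comparison was not matched for GC content, which averaged 47.5% at the ends and 40.9% in pericentromeric windows.

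Of the 1893 windows, 410 (21.7%) were above 0 in both replicates, where the background over all autosomal windows is 28.5%. There were 1372 windows (72.5%) below 0 in both, against a background of 64.2%, and 111 had opposite signs. The low extreme was fuller at the ends: 77 windows (4.07%) lay below -2 in both replicates, against a background of 0.935%. The high extreme was not, since 49 windows (2.59%) lay above 1 in both, against a background of 3.03%. The lowest 5% of windows began at -2.13 and -1.98, against -1.58 and -1.66 in the interior, while the highest 5% began at 0.84 and 0.99, against 0.98 in both replicates of the interior. Segments enriched in both replicates (log2 ratio above 0, −log10 p no lower than 2) covered 23.9% of the assayed bases at the ends and 27.9% in the interior. They filled 50% or more of 403 windows (21.3%), against a background of 25.9%. Pericentromeric windows were close to the ends in these shares, with 20.5% of windows above 0 and 73.0% below 0 in both replicates and 21.1% of assayed bases enriched in both.

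The ends differ from the interior in base composition and gene content. Mean GC content was 47.5% at the ends and 40.5% in the interior, and protein-coding starts numbered 1.24 and 0.67 per window. Within 6 strata of GC content, weighted by the windows at the ends, the difference was -0.24 and -0.20 (-0.22 ± 0.03, SD, n = 2). The replicates were closer to each other within strata than without them. When strata also held the number of gene starts, an alternative added after seeing the data, the difference was -0.27 and -0.24. The difference was present in each stratum below 54% GC, from -0.37 to -0.24 in replicate 1 and from -0.26 to -0.18 in replicate 2. In windows of 54% GC and over, 354 at the ends and 188 in the interior, it was -0.04 and -0.11. The share of windows above 0 in both replicates was 23.7% at the ends and 22.3% in the interior in this stratum. In each stratum below 54% GC that share was lower at the ends than in the interior.

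**Figure D1:**
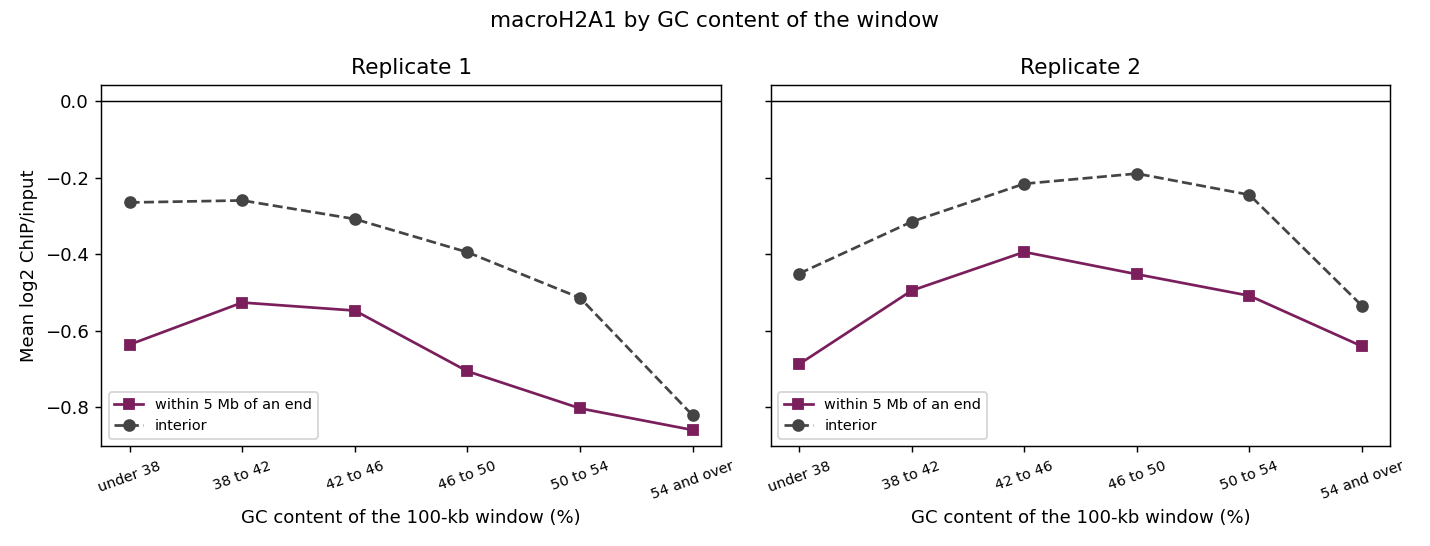
Mean log2 ratio of macroH2A1 ChIP over input (vertical axis) in 100-kb windows grouped by GC content (horizontal axis, %), for windows within 5 Mb of an autosome end (squares, solid) and interior windows (circles, dashed), 1 panel per replicate. The mean of windows at the ends lies below that of interior windows in every stratum of both replicates, by -0.04 and -0.11 in the stratum of 54% and over.

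GC content also separates the replicates themselves. At the ends, replicate 1 minus replicate 2 was 0.05 in windows under 38% GC and -0.29 in windows of 50 to 54%, and in the interior it ran from 0.19 to -0.29. The part of GC in sequencing or in the authors' scaling was not tested. Gene content moved with the ratio as well: the 929 windows at the ends without a protein-coding start averaged -0.55 and -0.36, and the 200 windows with 4 or more averaged -1.10 and -0.96. Only 17 of these 200 (8.50%) were above 0 in both replicates, whereas 225 of the 929 (24.2%) were. This fall with gene starts was not particular to the ends. Interior windows without a protein-coding start averaged -0.23 and -0.29, and those with 4 or more averaged -0.86 and -0.74. The interior shares above 0 in both replicates were 29.99% without a start and 12.76% with 4 or more.

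Windows without any base of a protein-coding gene were close to the like interior windows only before GC content was matched. The 464 such windows at the ends averaged -0.24 and -0.07 and 158 of them (34.1%) were above 0 in both replicates, against 36.1% of the like interior windows, which averaged -0.04 and -0.12. The sign of that difference was not the same in both replicates, and within GC strata the difference was -0.25. The 1429 windows that touch a protein-coding gene averaged -0.82 and -0.64, against -0.43 and -0.44 in the interior, and 17.6% were above 0 against 25.4%.

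The ratio fell toward the chromosome end in the mean, but much less in the typical window. Windows in the outermost 1 Mb averaged -0.87 and -0.71, those at 1 to 2 Mb -0.79 and -0.61, and those at 2 to 3 Mb -0.75 and -0.54. At 3 to 4 Mb the mean was -0.51 and -0.32, and at 4 to 5 Mb it was -0.50 and -0.34. The outermost 1 Mb thus lay -0.37 ± 0.002 (SD, n = 2) from the 4 to 5 Mb windows in the mean, whereas the difference between medians was -0.08. Both tails shifted. Windows below -2 in both replicates numbered 25 (7.18%) in the outermost 1 Mb and 3 (0.77%) at 4 to 5 Mb, and windows above 0 in both numbered 51 (14.7%) and 113 (29.0%). The 10th percentile was -2.05 and -1.92 in the outermost 1 Mb and -1.61 and -1.50 at 4 to 5 Mb, and the 90th percentile 0.26 and 0.40 against 0.80 and 0.92.

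Against interior windows of like GC content the outermost 1 Mb was -0.39 and -0.40 lower, the 1 to 2 Mb windows -0.28 and -0.27, and the 2 to 3 Mb windows -0.31 and -0.24. The differences at 3 to 4 Mb (-0.10 and -0.05) and 4 to 5 Mb (-0.12 and -0.06) were smaller. Beyond the 5 Mb limit the values did not settle, since windows at 5 to 6 Mb, which belong to the interior, were -0.24 and -0.18 lower than their strata and windows at 8 to 9 Mb -0.02 and 0.04. The limit of 5 Mb therefore marks no step in these data. Gene starts fell along the same axis, from 1.77 per window in the outermost 1 Mb to 0.96 at 4 to 5 Mb.

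**Figure D2:**
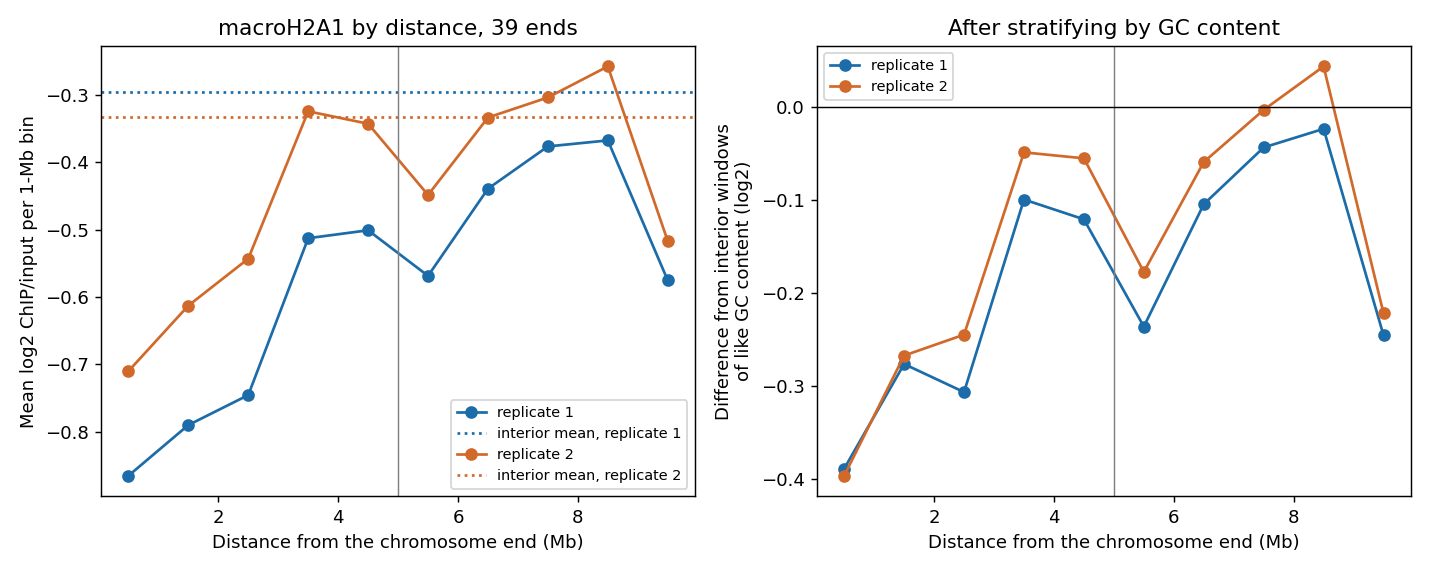
Left, mean log2 ratio of ChIP over input per 1-Mb bin (vertical axis) by distance from the chromosome end (horizontal axis, Mb) over 39 ends, with 1 line per replicate and dotted lines at the interior means of -0.30 and -0.33. Right, the difference from interior windows of like GC content, with a grey vertical line at 5 Mb. Values rise from -0.39 and -0.40 in the first bin to -0.12 and -0.06 in the last bin before that line. Beyond it they vary, and at 9 to 10 Mb they are -0.25 and -0.22.

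The gradient was not shared by all ends. The outermost 1 Mb lay below the 4 to 5 Mb windows in both replicates at 25 of 39 ends, above them at 13, and with opposite signs at 1. At 11q the outermost 1 Mb averaged -0.90 and -0.66 and the 4 to 5 Mb windows 0.51 and 0.63. At 14q the order was the other way round, with -0.67 and -0.50 in the outermost 1 Mb and -1.48 and -1.34 at 4 to 5 Mb. Compared with the following 5 Mb of the same arm, the first 5 Mb was lower in both replicates at 29 ends and higher at 5.

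The outermost sequence could not be read end by end, because most of it lies in the segments that carry 1 value for both chromosomes. Counted from the last sequenced base, the final 10 kb averaged 0.53 and 0.22 over the 21 ends with at least 50% of it assayed. Without the shared segments 1 end remained, 10p, at 0.44 and 0.43. From 10 to 25 kb the mean over 26 ends was -0.11 and -0.20, and over the 8 ends that remained without those segments it was -0.94 and -0.99. From 50 to 100 kb the mean was -0.25 and -0.16 over 30 ends, and -0.35 and -0.23 over 23 without them.

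Farther in, these segments mattered little. With all segments, the lowest stretch was 200 to 500 kb from the last base, at -1.07 and -0.91. It was below 0 in both replicates at 34 of 37 ends, and without the shared segments at 33 of 36. Without those segments this stretch averaged -1.07 and -0.92. The 10 to 25 kb stretch of 8 ends was then the lower in replicate 2, at -0.99. From 500 to 1000 kb the mean was -0.93 and -0.77, below 0 in both at 38 of 39 ends with or without them. Duplicated sequence adds another limit, since how the authors placed reads that match several ends is not given in the sources used here.

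Of the 39 ends, 4q and 6p were above 0 in both replicates and 37 were below 0. The mean of 4q was 0.24 and 0.23 and that of 6p 0.09 and 0.18. The next ends were 11q (-0.27 and -0.10), 10p (-0.33 and -0.15) and 18p (-0.30 and -0.33). The lowest were 16p (-1.23 and -1.03), 19q (-1.14 and -0.95), 12q (-1.13 and -0.83) and 8q (-1.03 and -0.80). In the order of means, 6p lay 0.32 above the next end, and no other neighbouring pair was more than 0.11 apart. Of the 38 neighbouring pairs, 2 differed by more than the larger of their SDs between replicates. Replicate 2 was higher than replicate 1 at 35 ends, so that SD holds a shift that most ends share. It therefore does not measure how well neighbours can be ranked, and their order was not tested. Over the 39 ends the correlation of the replicates was 0.95 (Pearson) and 0.92 (Spearman), as a description. The interior mean was above 30 of the ends and below 3 in both replicates.

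**Figure D3:**
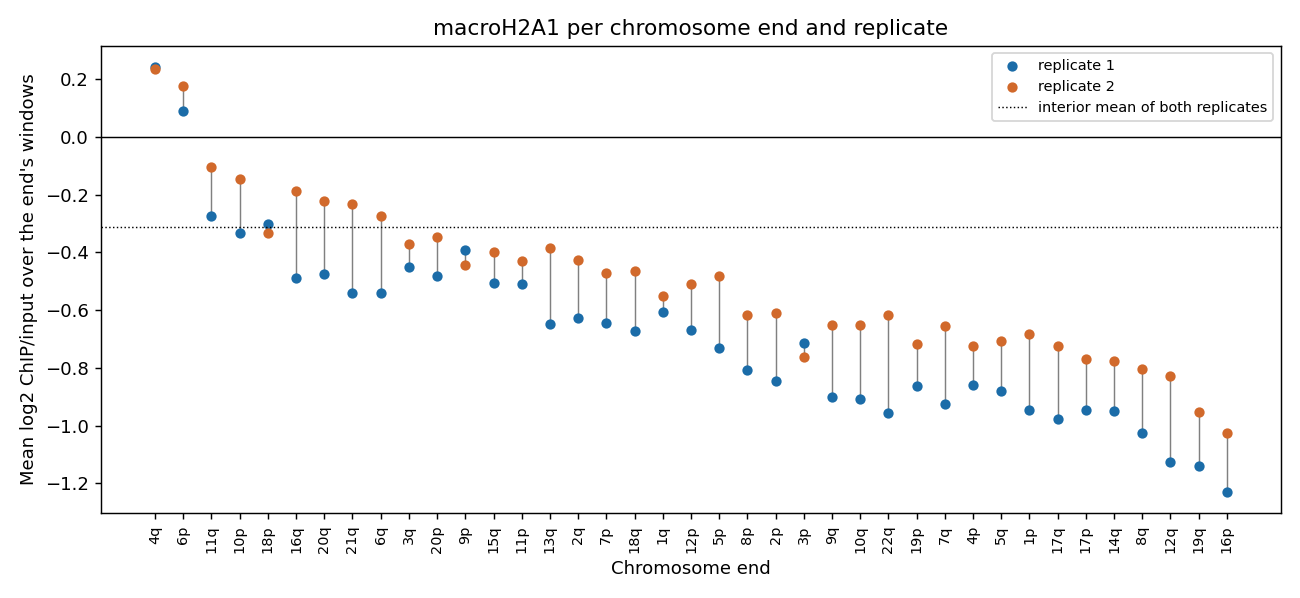
Mean log2 ratio of ChIP over input (vertical axis) over the windows of each of 39 autosome ends (horizontal axis, ordered by the mean of both replicates), with 1 point per replicate joined by a grey line and the interior mean as a dotted line. The 4q end (0.24 and 0.23) and the 6p end (0.09 and 0.18) stand above 0 and the series descends gradually to 16p (-1.23 and -1.03).

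Short and long arms did not differ beyond the replicates. Over the 17 chromosomes with both ends, the short-arm mean minus the long-arm mean was 0.04 in replicate 1 and -0.03 in replicate 2. The short-arm end was the higher in both replicates on 9 chromosomes and the long-arm end on 7. The 5 long-arm ends of the acrocentric chromosomes ranged from -0.86 to -0.39. Across the 39 ends the mean ratio had a Pearson r of -0.50 with GC content, -0.52 with the share of bases in protein-coding genes and -0.51 with gene starts per window. These are descriptions, because the ends come from the same 2 libraries and those features go together.

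**Figure D4:**
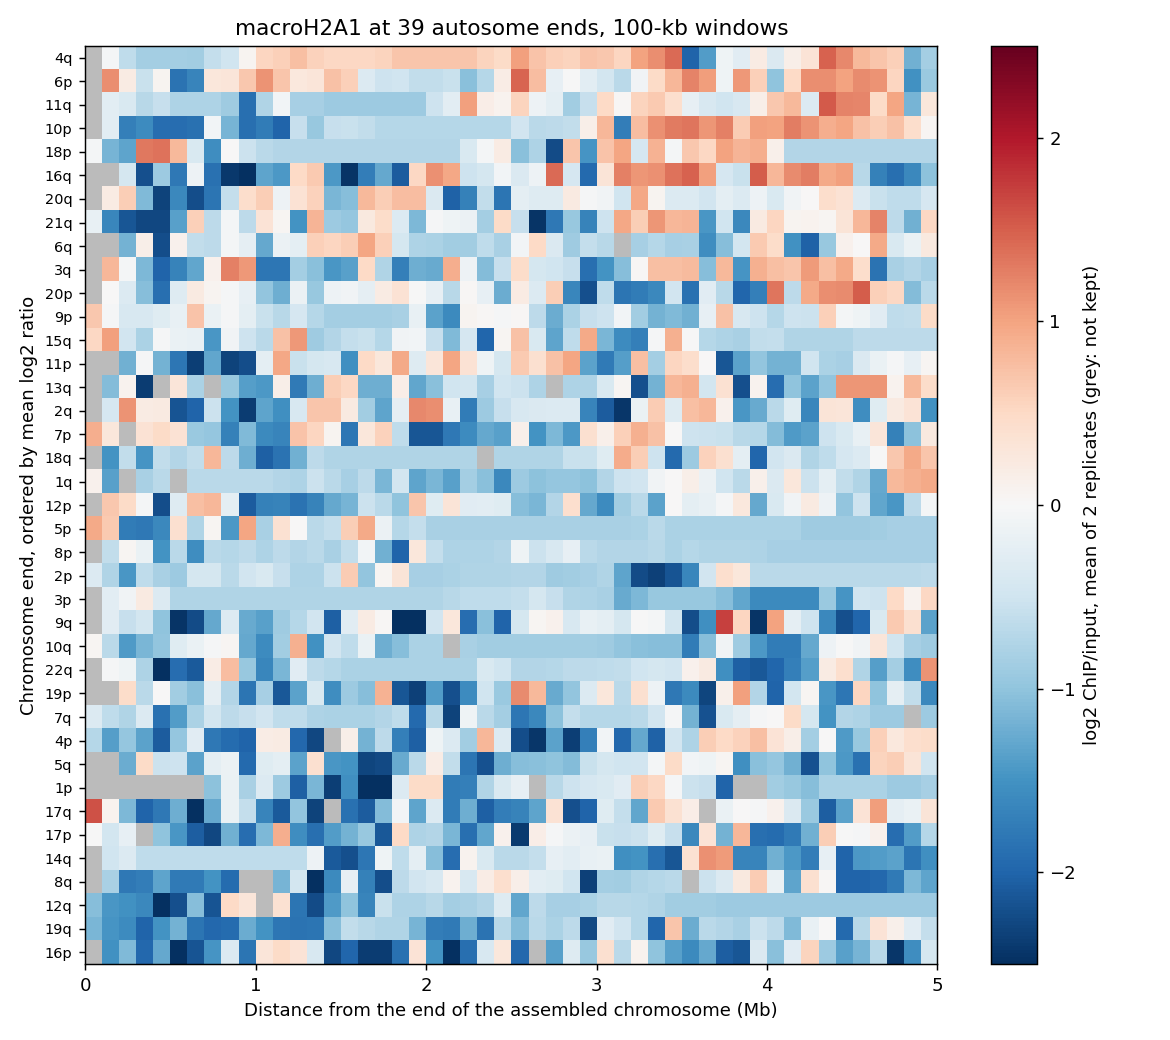
Log2 ratio of ChIP over input, mean of 2 replicates (colour; red above 0, blue below 0), in each 100-kb window by distance from the end of the assembled chromosome (horizontal axis, Mb) for 39 autosome ends (rows, ordered by mean); grey windows were not kept. The longest red stretches are at 4q (25 windows) and 10p (18 windows), and the longest blue stretch is at 3p (43 windows).

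At 4q, which stood highest, the windows above 0 lay mainly in a pair of domains. A run of 25 windows above 0 in both replicates (chr4:187654277-190154276), 1.0 to 3.5 Mb from the end, averaged 0.73 and 0.66, the longest such run at any end. It holds the starts of 3 protein-coding genes: ZFP42, which encodes a zinc finger protein of pluripotent cells, and TRIML1 and TRIML2, of the tripartite motif family. Each of the 3 gene bodies read 0.62 and 0.76, the value of a segment they share in each replicate. Toward the telomere the ratio crossed below 0, with FRG1 at -0.93 and -0.78 and FRG2 at -0.06 and -0.10, genes named for the region linked to facioscapulohumeral dystrophy. The window where DUX4 is annotated stood at -0.03 and -0.08, with part of it in the segment shared with 5p. FRG2 and DUX4 have near-identical copies elsewhere, so their values are uncertain.

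On the centromere side the domain stopped at FAT1, which encodes a large protocadherin expressed in many adherent cells. The window that holds its start read -2.19 and -1.80, and the adjoining window, which has no protein-coding start, 1.40 and 1.44. FAT1 as a whole (chr4:187508948-187647876) read -2.33 and -1.94. Further in lay a shorter run of 7 windows above 0 (chr4:186354277-187054276, 0.77 and 0.73). SORBS2, an adaptor of the cytoskeleton, read 1.08 and 1.04 over its whole span and PDLIM3, a muscle LIM-domain protein, 0.63 and 0.76. Between that run and FAT1 lay the liver genes F11 and KLKB1, a coagulation factor and prekallikrein. They read 0.26 and 0.55, and 0.43 and 0.39, while the window in which KLKB1 starts read -0.45 and -0.27. Low and high stretches thus alternated at this end within short distances.

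**Figure D5:**
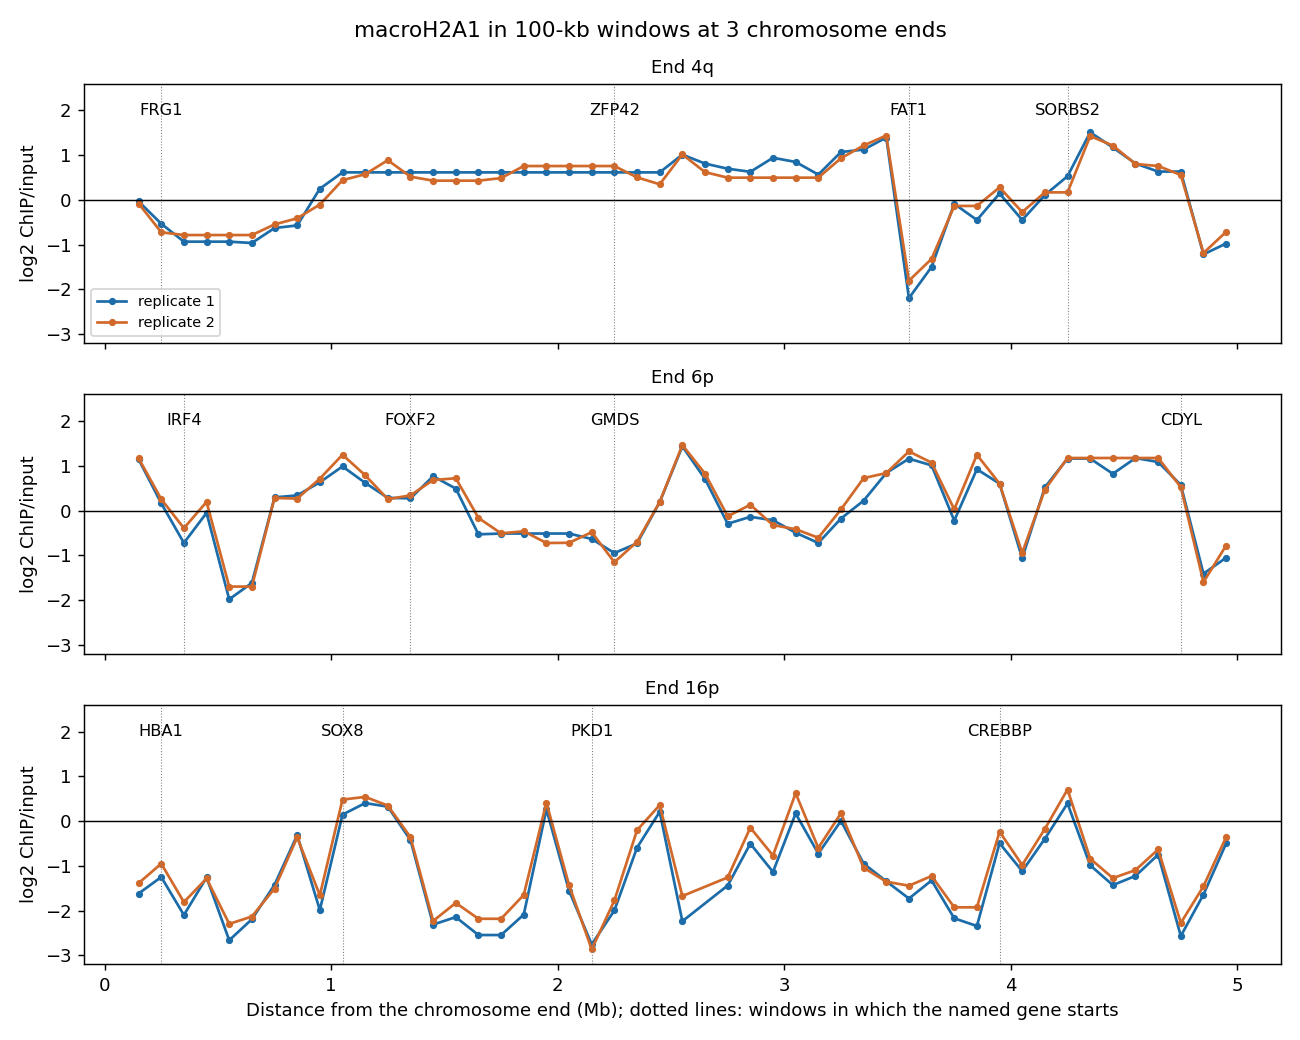
Log2 ratio of ChIP over input (vertical axis) in 100-kb windows by distance from the chromosome end (horizontal axis, Mb) at 4q, 6p and 16p, with 1 line per replicate; dotted lines mark the windows in which the named genes start. At 4q the values stay above 0 from 1.0 to 3.5 Mb and drop to -2.19 and -1.80 at FAT1; at 16p most windows are below 0 and the PKD1 window is at -2.76 and -2.87.

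The 6p end was built of several shorter domains. Its longest run above 0 had 9 windows (chr6:700001-1600000, 0.52 and 0.59) and holds the forkhead genes FOXQ1 and FOXF2. FOXQ1 itself read 0.62 and 0.41, whereas FOXF2 read -2.23 and -0.15, so that a window above 0 can hold a gene below 0 and the replicates disagree on its depth. Another run of 7 windows (chr6:4100001-4800000) averaged 0.93 and 0.98. IRF4, a transcription factor of lymphocytes, read 0.61 and 1.11. The genes EXOC2 of the exocyst (-1.86 and -1.70) and RIPK1, a kinase of inflammatory signalling (-1.77 and -1.54), were low in between.

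At 11q, the next in order, the longest run above 0 had 5 windows (chr11:130206517-130706516, 1.01 and 1.18). It holds the secreted proteases ADAMTS8 (0.05 and 1.34) and ADAMTS15 (-0.90 and -0.49), the first of which differed between replicates while the other was below 0 in both. The run of 18 windows at 10p (chr10:3200001-5000000, 0.87 and 0.95) was the next longest above 0 after that of 4q. It also held low genes: of the 3 genes that start in it, the transcription factor KLF6 read -2.62 and -2.68, the mitochondrial peptidase PITRM1 -2.57 and -1.98, and AKR1E2 0.39 and 0.36. The 10p genes, and those of 6p and 4q outside the longest runs and the lists, were named after their values were seen.

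The 3 lowest ends differ in how their genes are spaced. At 16p a pair of runs below 0 tied for the longest with 9 windows. The lower of them in both replicates (chr16:100001-1000000, -1.65 and -1.49) holds 46 gene starts. AXIN1, a scaffold of Wnt signalling, read -2.60 and -2.44 there. The alpha-globin genes in the same run stood apart: HBZ and HBM, embryonic and minor globins, shared a segment at 0.60 and 0.81, HBA1 read 1.24 and 2.26, and the neighbouring HBQ1 -2.58 and -1.90. HBA1 has a near-identical neighbour, HBA2, which was not measured, and its value is uncertain for that reason.

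At 19q the longest run below 0 had 34 windows (chr19:55728984-59128983, -1.39 and -1.20) and 135 gene starts, and it reached the last 100 kb. This end carries a dense cluster of KRAB zinc finger genes. Of the 66 measured genes at 19q with ZNF or ZSCAN symbols, a family picked after its values were seen, 65 were below 0 in both replicates and 0 above, with medians of -1.92 and -1.78. Over all autosomal genes the background of genes below 0 is 71.8%. Neighbouring genes of the cluster can share a segment, so the 66 are not all separate measurements. The other 123 genes of 19q had medians of -0.95 and -0.72, with 19 above 0. TRIM28, the corepressor that KRAB zinc finger proteins recruit, starts 0.07 Mb from the end and read -3.07 and -2.32, and ZNF154 read -2.28 and -1.92.

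At 12q the longest run below 0 had 38 windows (chr12:128851896-132651895, -1.10 and -0.76) with 16 gene starts. Its level was uneven: ULK1, a kinase that starts autophagy, and EP400, a chromatin remodeller, share a segment at -2.33 and -2.14, while TMEM132D, a neuronal membrane protein, read -1.04 and -0.75. A long gene-poor run was also seen at 3p, where 43 windows (chr3:400001-4700000) averaged -0.83 and -0.90 at a GC content of 38.1%, the longest run of either sign. It holds the contactin gene CNTN6 (-0.69 and -0.80) and also CRBN, which was low at -2.34 and -2.06. The olfactory receptor cluster of 1q lay near the level of CNTN6, with medians of -0.65 and -0.70 over 41 measured genes. All 41 were below 0 in both replicates, where the background is 71.8%. These medians equal the values of the 1q stretch 500 to 1000 kb from the last base. Genes of the cluster thus share segments, and the 41 are not separate measurements. Of the other 31 measured genes of 1q, 28 were below 0, with medians of -1.33 and -0.81. Genes below 0 near the ends thus ranged from moderate values to values below -2, and both occurred within the long runs of 3p and 12q.

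Runs below 0 were longer than runs above 0 at the ends. There were 249 runs below 0 with a median of 4 windows, 101 of them of 5 windows or more, and 195 runs above 0 with a median of 1 window, 16 of them of 5 or more. Among 1834 pairs of adjacent windows, 299 switched sign in both replicates and 68 changed by more than 2 in both. Of all windows at the ends, 72.5% were below 0 and 21.7% above 0 in both replicates. Runs and switches were not counted in the interior, so these counts are not known to be particular to the ends. The sharpest change was at 9q, where the window of the RXRA start read 0.93 and 1.09 and the next, inside the RXRA gene, -2.57 and -2.35. RXRA, a nuclear receptor, read -2.41 and -2.07 as a whole. From there a stretch without protein-coding starts rose to 1.59 and 1.82, and the following window, which holds the start of the collagen gene COL5A1, read -1.65 and -1.42.

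That 9q window (chr9:137413432-137513431) was the highest of all the windows, and the 5 highest, taken at most 1 per end, hold no protein-coding start. The other 4 were the last 100 kb of 17q (chr17:81095211-81195210, 1.54 and 1.64, with 80.1% of the window assayed, 47.1% when the segment shared with 18p is left out), 11q (chr11:130606517-130706516, 1.48 and 1.57), 20p (chr20:4500001-4600000, 1.55 and 1.48) and 16q (chr16:86354754-86454753, 1.29 and 1.74). The 16q end also has JPH3, a junctional membrane protein of excitable cells, whose start window read 1.22 and 1.59. Elsewhere in the same 5 Mb, IRF8, a transcription factor of myeloid cells, read 1.09 and 1.06.

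The lowest windows lay over genes. At 16p the window chr16:2100001-2200000 read -2.76 and -2.87 and holds PKD1 (-3.29 and -3.41) and TSC2 (-2.97 and -3.01), the genes of polycystic kidney disease and tuberous sclerosis, with RAB26 (-1.41 and -1.52). PKD1 has several near-identical partial copies on the same chromosome and 81.7% of it was assayed. At 12q the window chr12:133351896-133451895 read -2.69 and -2.72, over GOLGA3, a Golgi protein. The other 3 were a 16q window inside ANKRD11, a chromatin regulator (chr16:89354754-89454753, -3.06 and -2.31), a 22q window over PPP6R2 and SBF1 (chr22:50804567-50904566, -2.68 and -2.59), and a 9q window (chr9:139213432-139313431, -2.65 and -2.57) in which CARD9 and PMPCA start.

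Gene by gene, 2379 protein-coding genes start within 5 Mb of an end and 2332 had at least 50% of their span assayed. Their median log2 ratio was -1.48 and -1.25, against -0.90 and -0.78 for other autosomal genes. Of these genes 411 (17.6%) were above 0 in both replicates, where the background over all autosomal genes is 20.8%, and 1757 (75.3%) were below 0, against 71.8%. The shares lie near the background, while the median is lower, so the genes at the ends differed more in how low they were than in how many were low. A total of 5 lists of genes at chromosome ends were followed in detail, and no test of a list was made.

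Fibroblast matrix and adhesion genes had the lowest median of the 5 lists. Of 17 measured members 16 were below 0 in both replicates (background 71.8%) and 1, SORBS2, was above, with medians of -2.14 and -1.82. The lowest were the collagen VI chains COL6A1 (-3.29 and -2.80), COL6A2 (-2.93 and -2.81) and COL6A3 (-2.55 and -2.16), which together form a filament of the pericellular matrix. P4HB, a subunit of the enzyme that hydroxylates collagen prolines, read -2.46 and -2.19, and COL5A1 -2.49 and -2.09. COL4A1 and COL4A2, basement membrane collagens that share a bidirectional promoter, were less low, at -1.80 and -1.12, and -1.76 and -1.09. Expression was not measured in this series.

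Genes of other tissues in clusters at chromosome ends lay on both sides of 0. Of 31 measured members 17 were above 0 in both replicates (background 20.8%), 11 below (background 71.8%) and 3 of opposite sign, with medians of 0.26 and 0.39. After HBA1 came ITGB2, the leukocyte integrin chain (1.45 and 1.81), and INS and TH, insulin and tyrosine hydroxylase, which share a segment at 0.91 and 1.04. AIRE, a regulator of thymic epithelium, read 0.98 and 0.91. The list was not uniform: MUC6, a gastric mucin, read -2.02 and -1.76 and the neighbouring MUC2, an intestinal mucin, 0.58 and 0.96. The killer cell receptor genes KIR2DL1 and KIR3DL1 both read -0.95 and -0.72 within 1 segment, and belong to a family of close copies. KIR3DL3, FCAR, NLRP2 and NLRP7 also read -0.72 in replicate 2, and TNNT1 and TNNI3 share both values. The members counted in this list are therefore not all separate measurements.

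Gene families shared by many ends were measured only in part. Of 16 listed genes near an end 10 were measured, 6 above 0 (background 20.8%) and 4 below (background 71.8%), with medians of 0.36 and 0.49. Without the 2 that lie in segments shared between chromosomes, OR4F4 and ZNF596, 5 were above 0 and 3 below. SCGB1C1, a secretoglobin, read 1.36 and 1.84, the olfactory receptors OR4F15 1.63 and 1.38 and OR4F6 1.34 and 1.38, and the tubulin gene TUBB8 0.44 and 0.43. FRG2B (-0.23 and -0.13) and FAM110C (-0.32 and -0.27) were below 0. Some members of these families have near-identical copies at several ends, so values in this list can be uncertain.

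Genes discussed for position effects showed no common level. Of 11 measured members 2 were above 0, 8 below and 1 of opposite sign, shares near the backgrounds of 20.8% and 71.8%, with medians of -0.93 and -0.78. SORBS2 (1.08 and 1.04), which is also in the matrix and adhesion list, and BET1L, a Golgi trafficking protein (0.29 and 0.54), were above 0. TERT, the catalytic subunit of telomerase, lay near 0 at -0.33 and 0.08, and its neighbour CLPTM1L read -2.76 and -2.36. AHRR, a repressor of the aryl hydrocarbon receptor, read -1.98 and -1.56. ISG15, an interferon-induced modifier, read -0.34 and -0.39, and IRF7, a transcription factor of the interferon response, -3.28 and -3.04.

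Genes of the terminal deletion syndromes were near the autosomal background. Of 33 measured members 7 were above 0 (background 20.8%), 24 below (background 71.8%) and 2 of opposite sign, with medians of -1.27 and -0.76. Among those above 0 were GABRD, a GABA receptor subunit (0.23 and 0.65), and CHRNA4, a nicotinic receptor subunit (0.27 and 0.59). The lowest were SKI, a repressor of TGF-beta signalling (-2.78 and -2.77), FGFRL1, a receptor of the FGF family (-2.14 and -3.12), and YWHAE, a 14-3-3 protein (-2.60 and -2.62). SHH, the hedgehog ligand, read 0.16 in both replicates and the histone methyltransferase gene EHMT1 -2.38 and -2.01.

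The rule's minimum decided few windows. Of the 57 windows left out, 34 were mostly unsequenced bases and 24 lay within 100 kb of an end. Just inside the minimum, windows with 50.1% to 50.4% of bases assayed ranged from 2p (-1.79 and -1.49) to 21q (0.71 and 0.94), and just outside, a 10q window with 49.8% stood at -0.92 and -0.66.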

How the data were processed

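MacroH2A1 ChIP-seq was deposited for 2 replicates of IMR90 cells, and the 2 inputs entered only as the authors' denominator. Per the submitters' processing notes, CASAVA 1.7 and the build hg19 were used. The aligner, the handling of duplicate and multiply matching reads, the segmentation program and the scaling of ChIP to input were each not given in the sources used here. The authors deposited a segmentation of the genome per replicate, in which each segment has a −log10 p-value and a log2 ratio of ChIP to input. That its base is 2 was inferred: over assayed bases, 2 raised to the value averaged 0.99 and 0.98, and e raised to it 1.11 and 1.10. Because the scaling was not given, the base remains an inference. The authors' −log10 p-value was used only to call a segment enriched, at 2 or more with a log2 ratio above 0. In the deposited files the last segment of a chromosome and the first of the one listed next carry 1 value; leaving such segments out was an alternative added after seeing the data.

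Blocks of both replicates were intersected, and the log2 ratio was averaged by length over 100-kb windows anchored at each chromosome end and over protein-coding genes of GENCODE 44 mapped to GRCh37, with at least 50% of the window or gene assayed. Interior windows lie over 5 Mb from both ends. Python 3.11.15, numpy 2.4.6, pandas 2.3.3 and matplotlib 3.10.9 were used, and the averaging was tested on simulated data. The windows, the gene lists and the tests were chosen with earlier results of these data known. Named genes were those in the 5 highest and 5 lowest windows, in the longest run of the 3 highest and 3 lowest ends (up to 6 genes), and up to 6 of each list; genes named outside this rule were chosen after their values were seen. Some items that this rule names are not reported here. Alternatives were each replicate alone, other minimum shares, grids, window sizes, summaries and enrichment thresholds, and windows with or without genes.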

Additional observations from a re-analysis of the deposited data

How the results depend on the processing

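No alternative reversed the lower mean of the chromosome ends or their difference from the interior. The outermost 1 Mb minus 4 to 5 Mb difference, -0.37, has a spread between replicates of 0.002, so nearly every alternative moved it by more than that. It was -0.43 with 90% of a window assayed, -0.29 with any base, -0.33 with whole segments, -0.38 on a grid from base 1 or by distance from the last assayed base, -0.37 with 50-kb windows or each end equal, -0.35 with 500-kb windows and -0.32 with values clipped to 2. The median gave -0.0806. It was -0.26 in windows with a protein-coding gene and -0.32 in those without. Added after seeing the data, GC strata gave -0.30, leaving out 4q and 6p -0.35, and leaving out the segments shared between chromosomes -0.43.

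The share of windows above 0 in both replicates was 24.6% with 50-kb windows, 11.8% with 500-kb windows, 17.6% with genes and 34.1% without, and 22.6% to 26.6% in single replicates. Windows with a gene averaged -0.73 and those without -0.15, where the difference from the interior was -0.0708. The GC-stratified difference was -0.25 by the median, with gene starts in the strata, without genes, or without 4q and 6p, and -0.27 with genes. Ends above 0 numbered 0 with genes and 13 without. Short minus long arm was -0.0326 to 0.0352 in single replicates, 0.0599 with genes and reversed at -0.0665 without, and at -0.0046 without the shared segments. Enriched bases were 20.6% at −log10 p of 5, 15.9% at log2 above 0.5 and 26.6% to 29.2% in single replicates. The cause of these shifts was not tested.

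Depth is unknown, so counting error could not be given. Values are relative to input within a library and give no absolute amount, and short peaks inside a segment are not seen. No paired analysis was possible because only the 2 ChIPs have values of their own and the inputs enter only through the authors' ratio.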
